A study of Mus musculus with 2 samples.

Results

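The smooth muscle contractile program was followed through 33 genes that encode the actin and myosin filaments of smooth muscle cells, the enzymes and binding proteins that control them, their anchors at the cell membrane and the transcription factors that switch them on. They were picked by gene symbol, and the rule used no measured value, but the members were chosen with earlier results of these data known. All 33 were found among the 29895 gene names of the array, on 61 of the 39381 probes with a value on both arrays.

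The ureters of mouse embryos at E16.5 were profiled on 2 dual-colour oligonucleotide arrays to ask which transcripts change when Pparg, a nuclear receptor gene, is deleted from the ureteric epithelium. Each array held the RNA of a Pparg-cKO pool and of a control pool. The Pparg-cKO embryos were Pax2-cre/+; Pparg(fl/fl) and the controls carried no cre, with the genotype Pparg(fl/?) by the labels, so that the floxed allele was present in both. All were on the outbred NMRI background, and ureters were pooled after sorting by sex, female on array 1 and male on array 2. The stage label of the second channel reads E14.5, while titles and protocols give E16.5. The Pax2-cre driver was used to recombine the ureteric epithelium, and the smooth muscle cells, which arise from the surrounding mesenchyme, are not its stated target.

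No ratio could be given a genotype. The study's direction of change opposes the dyes that the labels assign to control and Pparg-cKO on both arrays. RNA A is therefore the RNA read in red (AlexaFluor647) on array 1 and in green (AlexaFluor555) on array 2, which the labels call control. The other RNA is RNA B. Ratios are log2 of the RNA A signal over the RNA B signal, so that a value below 0 is brighter in RNA B and a change of 1.5-fold is 0.58. Values are means ± SD over the 2 arrays, and 1 array per sex and per dye orientation leaves sex and dye impossible to tell apart.

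Smooth muscle cells contract when myosin heads pull on actin filaments after the myosin light chain has been phosphorylated by myosin light chain kinase. Myosin phosphatase reverses this step, and calponin, caldesmon, transgelin and tropomyosin lie along the actin filament and tune it. Dense bodies and dense plaques anchor the filaments inside the cell and at its membrane. In the ureter this machinery forms in the mesenchymal wall during late gestation and drives the peristalsis that carries urine to the bladder. The transcription factor SRF binds the CArG box and, with its partner myocardin, activates most of these genes.

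Because SRF is 1 of the members and its partner myocardin another, the CArG box was looked for in the promoters of the members. The RefSeq promoter windows of assembly GRCm38.p6, which span each gene's start, held an entry for 29 of the 33 genes. Myh11, Actg2, Myocd and Tagln had none. A CArG box (2 C, then 6 letters that are each A or T, then 2 G, which reads the same way on both strands) was found for 6 of these 29 genes, or 20.7%, and for 488 of 27025 genes of the table, or 1.81%. A stretch that differed from the box at 1 letter was found for 11 of the 29 genes, or 37.9%, and for 22.5% of all genes. The 6 genes with the box had a median ratio of -0.36 and the other 23 a median of -0.33. Only exact matches inside these windows count here, and boxes elsewhere were not looked for. The split therefore does not compare genes with and without SRF sites. The stretches are shown to let the boxes be compared, 5′ to 3′ on the strand of the gene, with the box in capitals.
Srf, chr17:46556225-46556254, minus strand, 72 bases before the start: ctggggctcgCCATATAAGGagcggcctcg
Srf, chr17:46556205-46556234, minus strand, 52 bases before the start: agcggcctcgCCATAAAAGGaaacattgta
Myl9, chr2:156775293-156775322, plus strand, 151 bases before the start: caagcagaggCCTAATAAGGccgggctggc
Myl6, chr10:128493040-128493069, minus strand, 40 bases before the start: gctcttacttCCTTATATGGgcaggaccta
Cnn2, chr10:79988534-79988563, plus strand, 46 bases before the start: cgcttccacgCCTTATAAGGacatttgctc
Vcl, chr14:20929161-20929190, plus strand, 217 bases before the start: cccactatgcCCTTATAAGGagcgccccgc
Ldb3, chr14:34588697-34588726, minus strand, 99 bases before the start: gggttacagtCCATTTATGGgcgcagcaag
Cnn2 and Vcl held the same box, and Srf held 2 boxes in its own promoter. These matches are letters in a window and were not tested as binding sites.

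Each array held 157716 probe spots, of which 5705 and 5579 were flagged and left out, and no spot was saturated. Of the 244 member spots per array, 236 and 234 were used. All 33 members were well above background in the same RNA on both arrays, and for 30 the brighter RNA reached a signal of 100 on each array. The standard error of a member's ratio over the spots of 1 array lay between 0.0022 and 0.10. Over all 21371 genes tested, the median ratio was 0.0066 and the correlation of array 1 with array 2 was -0.054 (Pearson) and -0.25 (Spearman) across genes, which share the labelling and are not replicates.

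Most contractile genes were brighter in RNA B, by less than 1.5-fold on at least 1 array. The ratio was below 0 on both arrays for 24 of 33 members, or 72.7%, against 17.4% of all genes tested. The median ratio of the members was -0.43 on array 1 and -0.49 on array 2. The median of their mean ratios was -0.36. Cald1 was the single member brighter in RNA A on both arrays, and 8 members had ratios of opposite sign. The array signals cannot tell apart a smaller number of smooth muscle cells and less RNA per cell.

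No member passed the filter or limma's adjusted threshold. The filter asked that 1 RNA be 1.5-fold brighter than the other on each array and reach a signal of 100 there, and 0 of 33 members passed it in RNA B (0.231% of all genes did) and 0 in RNA A (0.157%). No member passed it in opposite directions either (0.432% of all genes). limma called 0 of 33 members at an adjusted p under 0.05 in RNA B (0.187% of the genes tested) and 0 in RNA A (0.126%). At an unadjusted limma p under 0.05, 14 members were brighter in RNA B (2.1% of the genes tested) and 0 in RNA A (1.68%). Under 6 alternatives that kept both arrays, 1 to 6 members passed the filter in RNA B. Under the same 6 alternatives, 66 to 137 of all genes passed it in RNA B.

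The 1.5-fold threshold was crossed by different members on the 2 arrays. On array 1 it was reached in RNA B by 3 members, Actg2, Ppp1r12b and Lmod1 (4.91% of the genes tested reached it), and on array 2 by 10 members (3.7% of the genes tested). These 10 were Myh11, Cnn1, Ckm, Synpo2, Mylk, Myocd, Ldb3, Tagln, Acta2 and Ckb. No member reached it on both arrays with the probe that stands for it. A dim Synpo2 probe, at signals of at most 10.3, did so at -0.62 and -0.64. So did a Ppp1r12b probe that was not well above background, at -0.86 and -0.62 with signals of at most 3.59. Both signals of RNA A lay below both signals of RNA B for 19 of 33 members, against 10.1% of the genes tested.

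**Figure D1:**
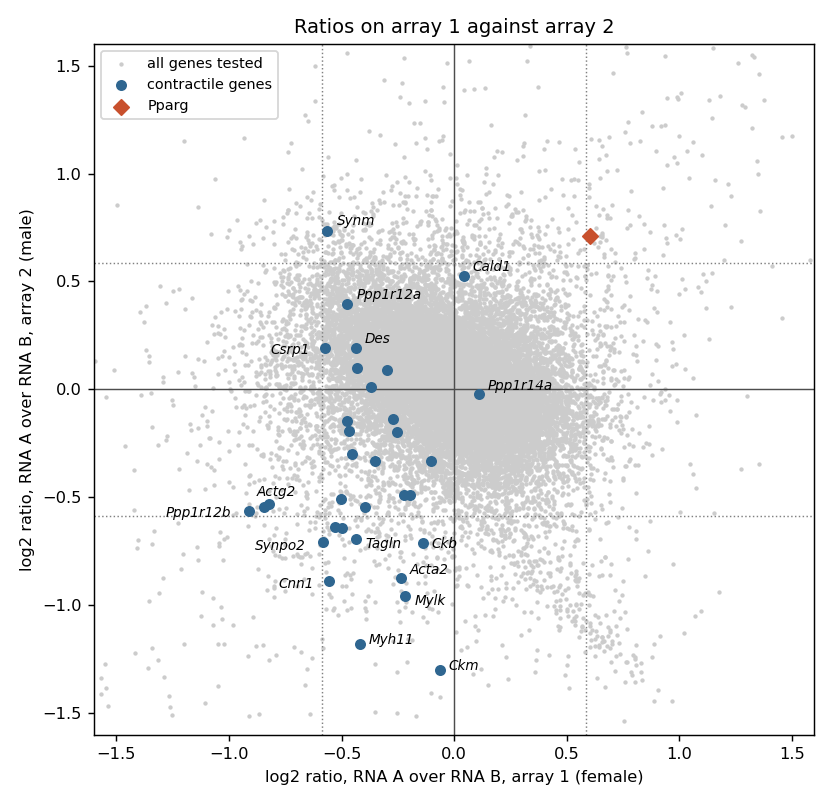
Log2 ratio of RNA A over RNA B on array 1 (x axis) against array 2 (y axis), for the 33 contractile genes (blue), Pparg (red diamond) and all genes tested (grey, 93 of them outside the axes), with dotted lines at 1.5-fold. The contractile genes lie mostly at the lower left, and no blue point lies beyond 1.5-fold on both axes.

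Among the myosin chains, Myh11, the smooth muscle myosin heavy chain that forms the thick filament, had the lowest mean ratio of all members. Array 1 read 1534 for RNA A against 2050 for RNA B, and array 2 read 1774 against 4022. The RNA B signals were above both RNA A signals, and the gap was wider on array 2. The ratio was -0.80 ± 0.54, with array values of -0.42 and -1.18 (limma, adjusted p = 0.585). The probe lies at chr16:14202190-14202249 (mm9, the build of the array files). Myl9, the regulatory light chain that is phosphorylated to start contraction, was at -0.39 and -0.55. Myl6, the essential light chain, which other cells express too, was at -0.10 and -0.33.

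Each array gave a brighter signal in RNA B for both actins. Actg2, the actin of enteric and other visceral smooth muscle, read 4435 for RNA A against 7959 for RNA B on array 1, and 7366 against 10737 on array 2. Both RNA A signals lay below both RNA B signals. The ratio was -0.69 ± 0.21, from -0.84 on array 1 and -0.54 on array 2 (limma, adjusted p = 0.578). Acta2, the actin that is the usual marker of smooth muscle, gave -0.24 on array 1 and -0.87 on array 2. The order of the arrays was thus the other way round for the 2 actins. The Actg2 probe lies at chr6:83462904-83462963 and the Acta2 probe at chr19:34316060-34316119 (mm9).

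The thin filament genes ran from Cnn1, among the lowest ratios, to Cald1, the highest. Cnn1, basic calponin, which binds actin and restrains myosin, gave signals of 4446 (RNA A) against 6529 (RNA B) on array 1 and 6355 against 11750 on array 2. The ratio was -0.72 ± 0.23, from -0.55 and -0.89 (limma, adjusted p = 0.532). On array 1 it was just short of 1.5-fold. Lmod1, leiomodin, which nucleates actin filaments in smooth muscle, was at -0.82 and -0.53 (mean -0.68 ± 0.21, limma, adjusted p = 0.611). Its signals were dim, 15.5 for RNA A against 27.4 for RNA B on array 1 and 27.2 against 39.2 on array 2, so that it could not have passed the filter. With normexp background correction and loess its mean was -0.37.

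Tagln, transgelin, an actin-bundling protein, gave -0.43 and -0.69. The tropomyosin genes, whose products cover the myosin sites of actin, came next. Tpm2 was at -0.50 and -0.51 and the brightest Tpm1 probe at -0.35 and -0.33. Cnn2, a calponin that non-muscle cells also make, was at -0.45 and -0.30. Smtn, smoothelin, was at -0.37 and 0.010. Cald1, caldesmon, which blocks the interaction of actin with myosin, was at 0.042 and 0.52. A second Cald1 probe gave -0.06 and 0.68, so that the 2 probes were close to each other on each array.

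The genes that set light chain phosphorylation diverged. Mylk, myosin light chain kinase, gave signals of 629 (RNA A) against 731 (RNA B) on array 1 and 606 against 1176 on array 2. The ratio was -0.22 and -0.96 (mean -0.59 ± 0.52, limma, adjusted p = 1.00). Ppp1r12b, a targeting subunit of myosin phosphatase, gave -0.91 and -0.56 (mean -0.74 ± 0.25, limma, adjusted p = 0.495). RNA A read 24.0 against 45.1 for RNA B on array 1, and 38.4 against 56.8 on array 2, below the signal threshold. Of the other Ppp1r12b probes that were well above background, both had mean ratios closer to 0, at -0.18 and -0.31. The Ppp1r12b mean was -0.48 with normexp and loess and -0.31 with the median over its probes.

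Ppp1r12a, the other targeting subunit and present in most cells, turned its sign between arrays, from -0.48 to 0.40. Its second probe did so in the opposite order, at 0.18 and -0.31, and the means of both probes were near 0. Ppp1r14a, the phosphatase inhibitor CPI-17, was at 0.11 and -0.019.

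The brightest probes of both transcription factors had ratios below 0 on each array. Myocd, myocardin, gave signals of 96.3 (RNA A) against 139 (RNA B) on array 1 and 127 against 197 on array 2. The RNA A signals lay below both RNA B signals. The ratio was -0.58 ± 0.075, from -0.53 and -0.64 (limma, adjusted p = 0.821). Srf gave -0.27 and -0.14. A second Srf probe, at signals of at most 742, gave -0.38 and 0.010.

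Of the anchoring genes, Synpo2 came closest to the filter. Synpo2, also called myopodin, an actin-binding protein of dense bodies and the Z-disc, gave signals of 1122 (RNA A) against 1679 (RNA B) on array 1 and 1455 against 2377 on array 2. The ratio was -0.64 ± 0.089, from -0.58 and -0.71 (limma, adjusted p = 0.639), and on array 1 it was just short of the threshold. The other Synpo2 probes gave means of -0.76 and -0.63 at signals of at most 149 and 10.3. Ldb3, a PDZ and LIM protein that binds alpha-actinin, read 196 for RNA A against 277 for RNA B on array 1, and 223 against 348 on array 2. The ratio was -0.50 and -0.64 (mean -0.57 ± 0.10, limma, adjusted p = 0.876).

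The other anchors had ratios closer to 0. Pdlim3, a related PDZ and LIM protein, was at -0.22 and -0.49, and Vcl, vinculin, which links actin to integrin adhesions, at -0.20 and -0.49. A second Vcl probe gave 0.065 and -0.76. Actn1, alpha-actinin, was at -0.47 and -0.19, and Flna, filamin A, which crosslinks actin, at -0.48 and -0.15. The brightest probes of the remaining 3 were below 0 on array 1 and above it on array 2. Csrp1, a LIM protein of smooth muscle, was at -0.57 and 0.19, Pgm5, aciculin, at -0.43 and 0.10, and Pdlim7, also called enigma, at -0.30 and 0.091. Other probes of Pgm5 and Pdlim7 did not show this order of signs. For Pgm5, 1 probe was at -0.22 and -0.44, and another changed sign the other way round, at 0.09 and -0.32. For Pdlim7 they were at -0.26 and -0.14 and at 0.019 and 0.020.

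The brightest probes of the intermediate filament genes also changed sign. Des, desmin, gave -0.44 and 0.19. Synm, synemin, gave -0.56 and 0.74, the widest spread of all members, at signals between 24.1 and 41.1. A second Synm probe well above background did not change sign, at 0.077 and 0.17, with signals of at most 14.7.

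Of the metabolic and stress proteins, Ckm, the muscle creatine kinase that regenerates ATP, differed in RNA A from array to array. RNA A read 134 against 140 for RNA B on array 1, and 65.6 against 162 on array 2. The ratio was -0.064 on array 1 and -1.30 on array 2 (mean -0.68 ± 0.87, limma, adjusted p = 1.00), so that the mean rested on array 2. Ckb, the creatine kinase of brain and smooth muscle, was at -0.14 and -0.71, and Hspb6, a small heat shock protein that takes part in relaxation, at -0.25 and -0.20.

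**Figure D2:**
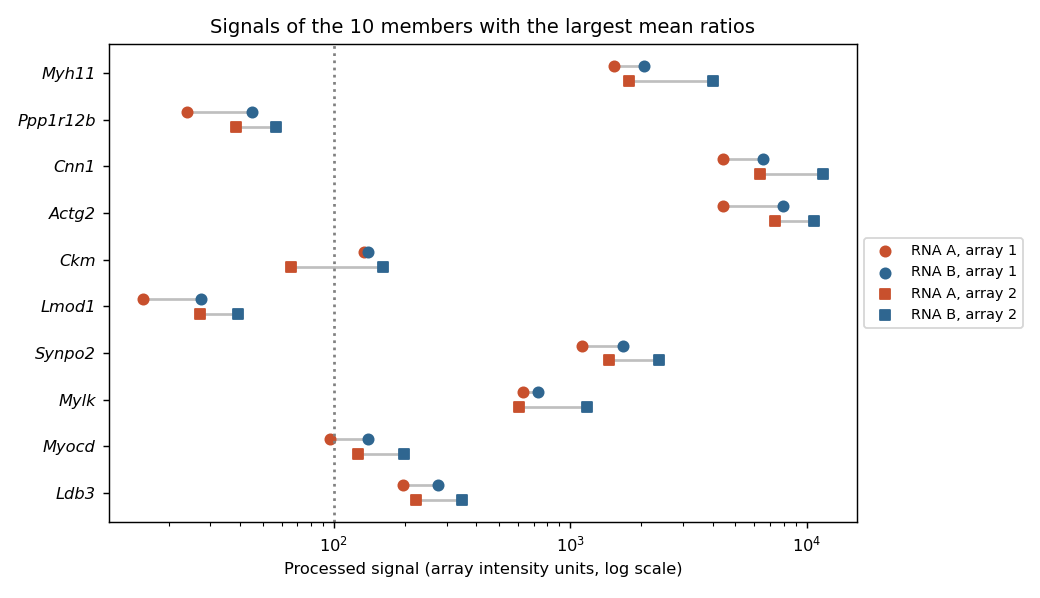
Processed signal (x axis, array intensity units on a log scale) of the 10 members with the largest mean ratios, in RNA A (orange) and RNA B (blue) on array 1 (circles) and array 2 (squares); the dotted line marks a signal of 100, and levels of different genes come from different probes and cannot be compared. In each pair the RNA B point lies to the right of the RNA A point, and the Ckm pair of array 1 is nearly on 1 spot.

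**Figure D3:**
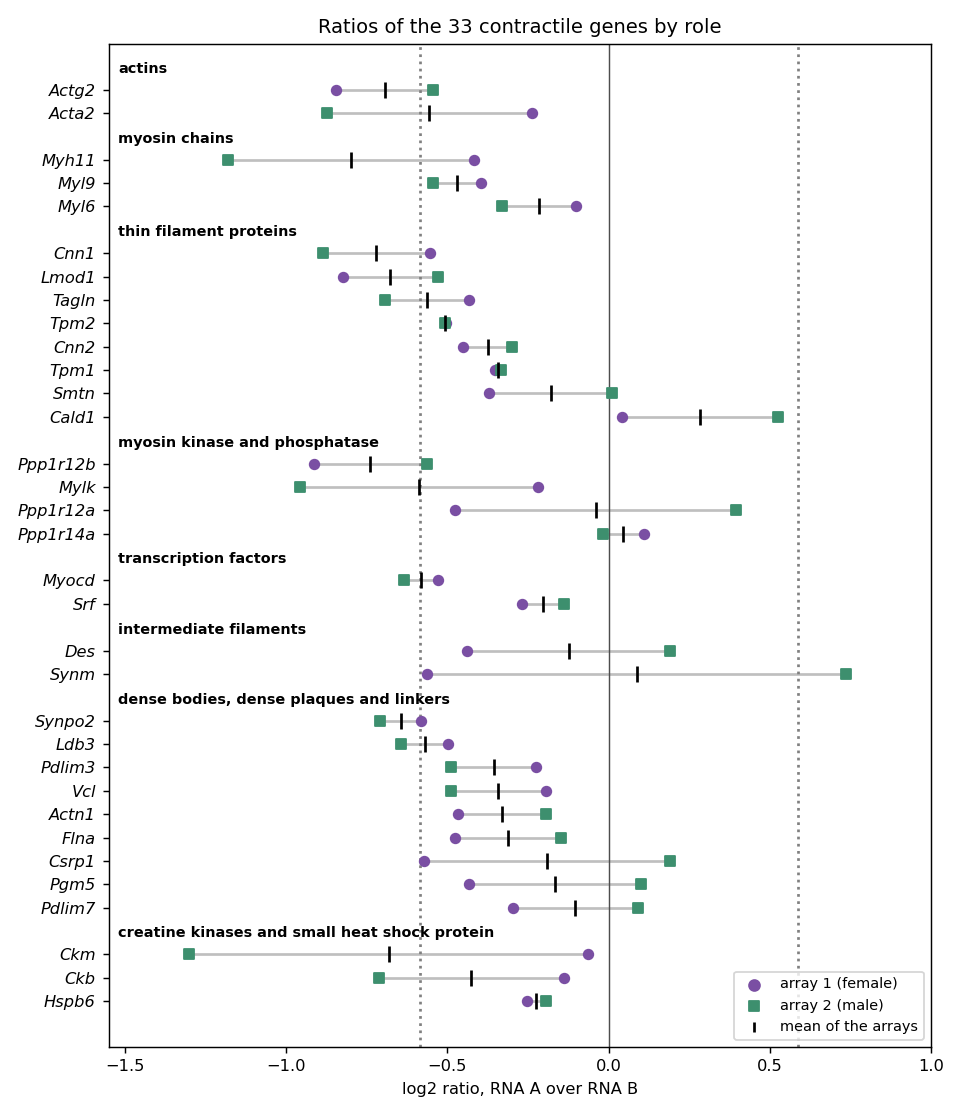
Log2 ratio of RNA A over RNA B (x axis) of the 33 contractile genes by role, on array 1 (circles), array 2 (squares) and as their mean (bars), with dotted lines at 1.5-fold. Actins, myosin chains and transcription factors lie below 0 on both arrays, while both intermediate filament genes cross 0.

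By role, the counts with the brightest probe of each gene ran as follows. All 2 actins, 3 myosin chains, 2 transcription factors and 3 genes of energy and stress proteins were below 0 on both arrays. So were 6 of 8 thin filament genes, 6 of 9 anchoring genes, 2 of 4 genes of the kinase and phosphatase and 0 of 2 intermediate filament genes. Of the 24 genes below 0 on both arrays, 15 were further from 0 on array 2 and 9 on array 1. The SD over the arrays exceeded the size of the mean for 10 of the 33 members.

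Probes of 1 gene mostly had the same sign. In all, 57 of the 61 probes were well above background, and 38 of these were below 0 on both arrays. Of the 17 members with several such probes, 15 had mean ratios of 1 sign throughout, and the exceptions were Smtn and Pdlim7, at -0.18 and 0.03 for the 2 probes of Smtn and from -0.20 to 0.02 for the 3 probes of Pdlim7. The 5 probes of Tpm1, designed on different transcripts of this alternatively spliced gene, ranged in mean ratio from -0.34 to -0.07. The brightest Tpm1 probe was at -0.35 and -0.33, while the others were between -0.05 and 0.03 on array 1 and between -0.45 and -0.09 on array 2. With the median over its probes, Tpm1 was at -0.18, Smtn at -0.077 and Pgm5 at -0.27.

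Other genes of smooth muscle cells were shifted less. A list of 30 such genes, among them integrins, Cav1, LIM proteins, the myocardin-related factors and the nitric oxide pathway that relaxes the muscle, had a median mean ratio of -0.08. Of these, 9 were below 0 on both arrays and 2 above, and 0 of 30 passed the filter.

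Striated muscle genes were mixed. The median of the mean ratios was -0.15 for the skeletal and -0.33 for the cardiac list, beside -0.36 for the members. On array 1, 6 of 9 skeletal and 5 of 6 cardiac genes were below 0, with medians of -0.37 and -0.23. On array 2, 4 of 9 skeletal and 3 of 6 cardiac genes were below 0, and the median was 0.09 for the skeletal and -0.45 for the cardiac list. The genes with the lowest ratios there included both striated muscle actins. Acta1, skeletal actin, was at 0.030 on array 1 and -1.21 on array 2, Actc1, cardiac actin, at -0.092 and -0.93, and Tnnt2, cardiac troponin T, at -0.19 and -1.16. Developing smooth muscle can also express both of these actins. All 6 cardiac genes were well above background. Their summed signal was 19278 in RNA A against 20708 in RNA B on array 1, and 17506 against 33975 on array 2. Of the 10 skeletal genes of the list, 9 were well above background (Myod1 was not analysed here). The summed signal of these 9 was 6913 in RNA A against 7736 in RNA B on array 1, and 4943 against 9918 on array 2. Without Acta1 the skeletal sum was 2276 in RNA A against 3193 in RNA B on array 1, and 1275 against 1462 on array 2. Without Actc1 the cardiac sum was 1911 in RNA A against 2198 in RNA B on array 1, and 2145 against 4607 on array 2. Of the other skeletal genes, Myog, the myogenic regulator, was at -0.39 and 0.090, Tnni2, fast troponin I, at -0.78 and -0.55 and Mylpf, a fast myosin light chain, at 0.54 and 0.48. Of the other cardiac genes, Myh6 was at -0.39 and -1.01, at signals of at most 41.1, and Tnni3, cardiac troponin I, at -0.52 and 0.21. Myh7 was at -0.28 and 0.045 and Nppa at 0.18 and 0.18. The part of striated muscle in the members' ratios was not tested.

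Other cell types moved as well. Of 9 urothelial genes, 6 were below 0 on both arrays, and Upk1a, a uroplakin of the luminal cells, was at -1.42 and -1.22 and Upk3a at -0.64 and -0.77. Krt5, the keratin of basal cells, was brighter in RNA A, at 0.26 and 0.67, and the epithelial genes Epcam (0.24 and -0.055) and Cdh1 (-0.59 and 0.15) changed sign. The summed signal of the 9 urothelial genes was 98145 in RNA A against 153890 in RNA B on array 1, and 107985 against 152422 on array 2. The uroplakins and the keratins Krt8 and Krt18 were below 0 on both arrays. Of 6 pericyte genes, 0 had the same sign on both arrays, and the same held for 6 endothelial genes. The summed pericyte signals were 8686 in RNA A against 9670 in RNA B on array 1, and 10624 against 9915 on array 2. The endothelial ones were 12947 against 11666 on array 1 and 12205 against 12217 on array 2. Of 6 genes of the ureteric mesenchyme, with a median mean ratio of -0.03, 2 were below 0 on both arrays and 4 had mixed signs. The 2 were Foxf1 (-1.07 and -0.37) and Gli1 (-0.60 and -0.42), both targets of hedgehog signalling. Tbx18, which marks this mesenchyme, was at 0.11 and -0.081 and Sox9 at -0.030 and 0.71. The mast cell genes Cma1 (1.36 and 0.83) and Cpa3 (1.5 and 1.17) were brighter in RNA A. The kidney genes Umod and Slc12a1 had signals of at most 4.67, near background. Slc34a1, another kidney gene, was brighter in RNA B at signals of at most 37.2. The part of these cells in the members' ratios was not tested.

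**Figure D4:**
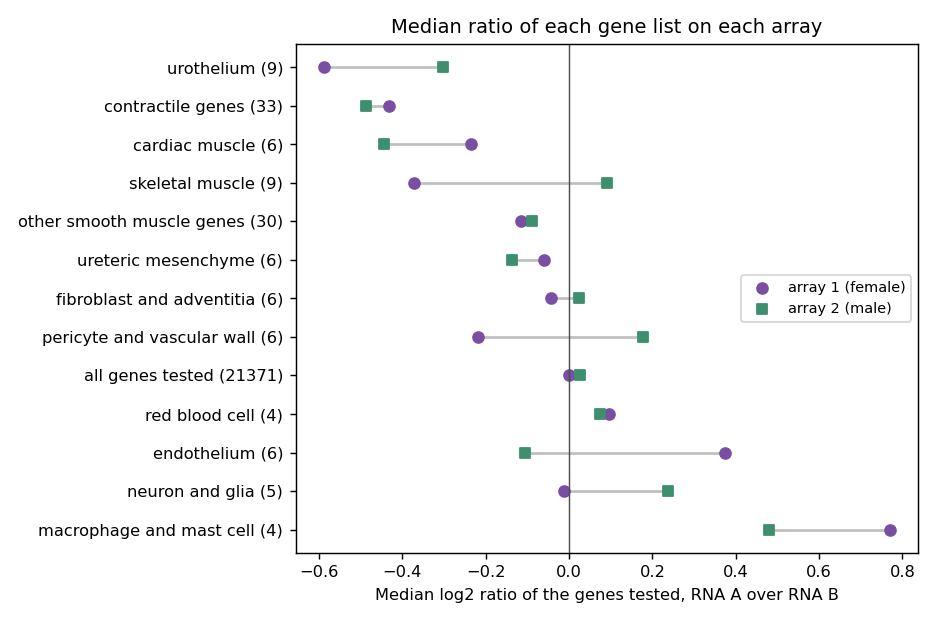
Median log2 ratio of RNA A over RNA B (x axis) of each gene list on array 1 (circles) and array 2 (squares), with the number of genes tested in brackets; lists with fewer than 3 genes tested and the kidney list, whose genes are near background, are not drawn. Lists are ordered by the median of their mean ratios, with the urothelial and the contractile genes lowest, and the other smooth muscle genes are close to 0.

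Pparg, the targeted gene, read 11295 for RNA A against 7430 for RNA B on array 1, and 12888 against 7872 on array 2. It was the other way round from the members, at 0.60 and 0.71, and passed the filter in RNA A (limma, adjusted p = 0.611). Where its probe lies relative to the deleted exons was not worked out here, so the ratio checks neither the labels nor the deletion.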

How the data were processed

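The deposited processed intensities came, per the file headers, from Feature Extraction 10.7.3.1, which subtracted background and normalised the dyes of each array (linear, then LOWESS). The dyes were checked against the authors' deposited log10 ratios of red over green. The deposited mean signal and background intensities, and the table of signed fold changes that the authors deposited, a score of unstated direction, were used for alternatives.

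Control and flagged spots were dropped, and the log2 signals of each probe's remaining spots were averaged. The probe with the brightest mean log2 signal stood for its gene. limma 3.58.1 (R 4.3.3; lmFit with an intercept, eBayes) was applied to the ratios of 21371 genes well above background (at least 0.5 of spots) in the same RNA on both arrays, with Benjamini-Hochberg adjustment at 0.05. The filter used the fold and intensity threshold of the study's methods, whose application to dyes and arrays is not stated. Members were named by role, the 10 with the largest mean ratios with all signals; Pparg and, of the other lists, the genes past 1.5-fold on both arrays were named beside them, and further marker genes were chosen after their values were seen. Values of some other genes of the lists are not reported here. The members and lists were chosen with earlier results of these data known. The scripts were tested on simulated data. The 2 arrays may share a slide and a scan, and no batch was fitted. With pools the p-values measure only the spread between 2 arrays. The number of arrays limits the precision. Alternatives covered background, dye normalisation, centring, probes, spots, filters, names and leaving out each array. Promoters were read from the RefSeq windows of GRCm38.p6, and plots were drawn with matplotlib 3.10.9.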

Additional observations from a re-analysis of the deposited data

Results flagged for a closer look

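For 8 members the female and the male array differed in sign, with 1 array each, so that the difference was not tested and sex and dye cannot be told apart. The ratios of RNA A over RNA B on arrays 1 and 2 were -0.57 and 0.19 for Csrp1, -0.37 and 0.010 for Smtn, and -0.43 and 0.10 for Pgm5. They were -0.44 and 0.19 for Des, -0.30 and 0.091 for Pdlim7, and -0.48 and 0.40 for Ppp1r12a. They were 0.11 and -0.019 for Ppp1r14a, and -0.56 and 0.74 for Synm. These are the values of the brightest probe, and other probes of Pgm5, Pdlim7, Ppp1r12a and Synm did not repeat the order.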

How the results depend on the processing

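No member was called by limma under any alternative that gave a test, and the count of members below 0 on both arrays stayed within 1.5 times that reported. The number of members past the filter in RNA B was 2 (Cnn1 and Synpo2) with normexp and loess and with median centring, and 1 (Synpo2) with loess on the processed signals, with the deposited table and with the median over spots. Of all genes, 66 and 78 passed it under the first 2 of these settings, and 75, 69 and 73 under the other 3. With the threshold on the mean ratio, 6 members passed it (Actg2, Ckm, Cnn1, Myh11, Mylk and Synpo2), and 137 of all genes did. On array 1 alone 1 member passed it (Actg2), with 637 of all genes. On array 2 alone 10 members passed it, with 485 of all genes. The other smooth muscle genes past the filter numbered 1 with loess on the processed signals and with the threshold on the mean ratio, and 1 to 2 on a single array. The median ratio of the members was -0.49 to -0.43 on a single array and within the spread of the array medians otherwise. Of the members' ratios under the alternatives, 355 kept their sign and 8, all on a single array, changed it: without array 1 for Csrp1, Smtn, Pgm5, Des, Pdlim7, Ppp1r12a and Ppp1r14a, and without array 2 for Synm. A single array leaves no residual degrees of freedom, so limma could not be fitted. The means of Ppp1r12b, Lmod1, Tpm1, Smtn, Pgm5, Ppp1r14a and Synm moved by over 1.5 times under at least 1 alternative that kept both arrays. The causes were not tested. Signals below 100, as for Lmod1, Ppp1r12b and Synm, limit what the arrays can show.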
